A study of Homo sapiens with 3 samples.

Results

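The Krüppel-like factor (KLF) genes KLF2, KLF3, KLF4, KLF5, KLF6, KLF7, KLF9, KLF10, KLF11 and KLF13 are 10 of the 52992 genes to which transcripts of the abundance tables could be summed. They were chosen by gene symbol, taking every transcript row that GENCODE 29 assigns to these symbols, a rule that uses no measured value, although the symbols were picked with earlier results of these data known. A mean of at least 10 estimated counts over the libraries was the minimum for a gene to be called measured. All 10 KLF genes passed it, among 14082 genes in the series, although KLF4 and KLF9 had 10 counts or more with wild-type ZFP36L1 alone, so that counts and medians over the 10 are descriptions. A BGISEQ-500 was used to sequence RNA pulled down by a protein bait from lysates of J82, a long-established line of human bladder cancer cells. The baits were glutathione S-transferase (GST) fused to wild-type ZFP36L1, GST fused to the ZFP36L1-Ala mutant, and GST alone as the control. Each bait had 1 library, 3 in all, so that differences have no replicate check and no p-value was computed. Which residues of ZFP36L1-Ala were changed to alanine is not stated in the labels, and a bait in a lysate meets RNA outside the intact cell.

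KLF proteins are transcription factors that bind GC-rich and CACCC promoter elements through a cluster of zinc fingers at the C terminus, and they differ mainly in the N-terminal part that recruits cofactors. KLF2, KLF4, KLF5, KLF6 and KLF7 belong to the subgroup of activators, KLF3 represses transcription with the corepressor CtBP, and KLF9, KLF10, KLF11 and KLF13 recruit the corepressor SIN3A. Many KLF genes are induced quickly by growth factors, stress or shear flow, and in the mouse Klf5 is needed for the bladder urothelium to mature. ZFP36L1 is an RNA-binding protein that binds AU-rich elements, best the core site UAUUUAU, in the 3' untranslated region (3' UTR) of mRNAs, and it recruits deadenylases that shorten the poly(A) tail.

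The genes are spread over the genome (GRCh38, GENCODE 29). The activators are KLF2 (ENSG00000127528, chr19:16324817-16327874), KLF4 (ENSG00000136826, chr9:107484852-107490482), KLF5 (ENSG00000102554, chr13:73054976-73077542), KLF6 (ENSG00000067082, chr10:3775996-3785281) and KLF7 (ENSG00000118263, chr2:207074137-207167267). The repressor KLF3 (ENSG00000109787) lies at chr4:38664196-38701042. The SIN3A-binding genes are KLF9 (ENSG00000119138, chr9:70384597-70414624), KLF10 (ENSG00000155090, chr8:102648779-102655902), KLF11 (ENSG00000172059, chr2:10042849-10054836) and KLF13 (ENSG00000169926, chr15:31326855-31435665).

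The libraries held 19845386 estimated counts for wild-type ZFP36L1, 19153483 for ZFP36L1-Ala and 19137867 for GST. Mitochondrial genes took 14.9%, 7.22% and 10.2% of these counts in the same order. Epithelial keratins and vimentin were present in each library, with KRT18 at 29.5 TPM (transcript abundance per length, on a fixed library total) for wild type, 626 TPM for the mutant and 426 TPM for GST, and VIM at 67.5, 635 and 998 TPM. The urothelial markers UPK3A and KRT20 were listed at 0 in each library, and 8 of the 11 urothelial and epithelial markers were under 1 TPM with GST. The summed level of 5 leukocyte markers was between 0.26 and 0.60 TPM, with CD3E at 0. All comparisons are of shares of a library, scaled by the trimmed mean of M values method (TMM), so that a lower ratio need not mean that less RNA was recovered. Intervals cover counting error only. The name of the deposited GST table carries another code than those of both fusion proteins, and the labels do not say what it stands for. Whatever it marks cannot be told apart from the bait in the comparisons with GST.

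The 3' UTRs of 5 KLF mRNAs held the core site UAUUUAU, once each. These sites, with 11 bases on either side, are given here because they are the sequences that ZFP36L1 is known to recognise. They were read from the GENCODE 29 transcripts (GRCh38) in the direction of the mRNA, with the site in capitals. The lines for KLF4 show its AUUUA pentamers, the only motif of this kind in its 3' UTR, and that for KLF13 its single UAUUUA.
KLF2 (chr19:16327101-16327129, plus strand, 81 bases after the stop codon): acugugacuggUAUUUAUuggacccagag
KLF5 (chr13:73077177-73077205, plus strand, 1302 bases after the stop codon): uuguuuaucuuUAUUUAUuuugugguaau
KLF6 (chr10:3778341-3778369, minus strand, 1195 bases after the stop codon): uauguuucucuUAUUUAUgccuugaggac
KLF7 (chr2:207075429-207075457, minus strand, 5767 bases after the stop codon): gccuucucuggUAUUUAUaauauaucaca
KLF11 (chr2:10052880-10052908, plus strand, 384 bases after the stop codon): uuuuagaaaaaUAUUUAUauuguuggugc
KLF4 (chr9:107485148-107485174, minus strand, 588 bases after the stop codon): uuccgaucaacAUUUAugaccuaaguc
KLF4 (chr9:107484963-107484989, minus strand, 773 bases after the stop codon): auguaauauaaAUUUAagcaaacgucu
KLF13 (chr15:31376888-31376915, plus strand, 4600 bases after the stop codon): uuuacuacuuuUAUUUAaaaaugaacug

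The surroundings of the core site differed between members. In the printed windows 82.8% of bases were A or U for KLF5 and 79.3% for KLF11, against 55.2% for KLF2. The site of KLF2 lay nearest to the stop codon and that of KLF7 farthest. Among 11436 measured protein-coding genes with an annotated 3' UTR, 3550 held UAUUUAU, 49.7% held UAUUUA and 67.9% held AUUUA, and of the 10 KLF genes 5, 8 and 10 did. The longer motifs contain the shorter ones, so these counts are nested. The 3' UTRs of the KLF genes were long, with a median of 2754 bases against 967 bases for all genes, and AUUUA stood at a median of 2.37 per kilobase against 1.62. KLF7 had the longest 3' UTR, of 7076 bases, with 6 UAUUUA and 20 AUUUA. KLF10 and KLF4 had no UAUUUA and 3 and 2 AUUUA. Another motif, UGUANAUA, which Pumilio proteins bind, was present in 7 of the 10 and in 25.7% of all genes, counted on the mRNA strand like the others.

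**Figure D1:**
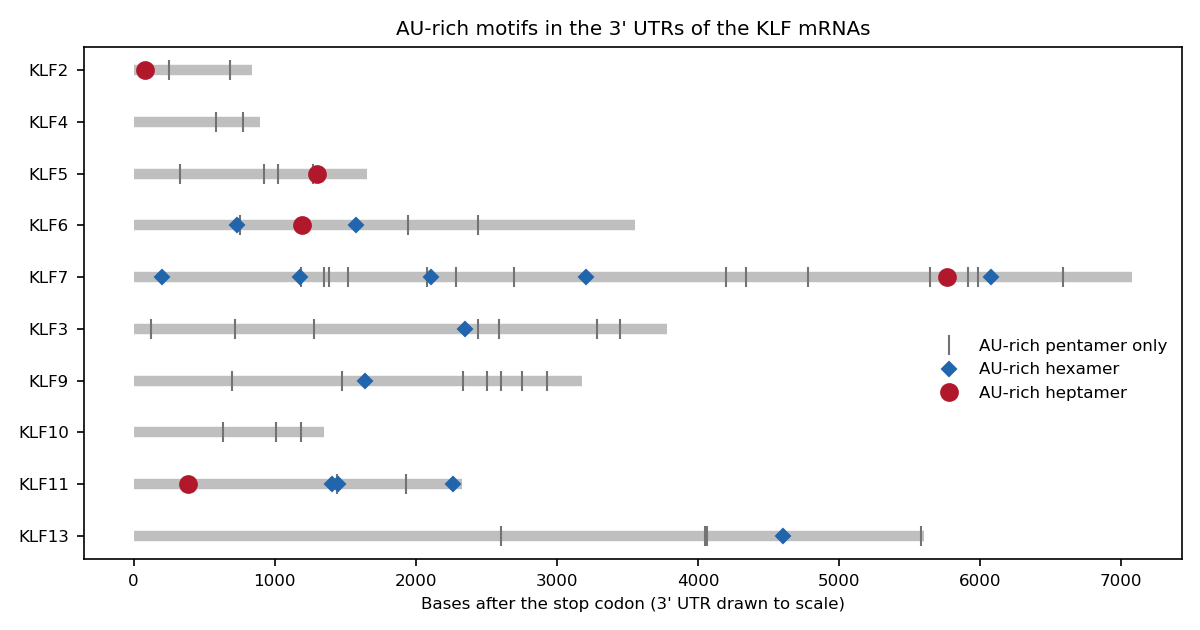
AU-rich motifs along the 3' UTR of each KLF mRNA, drawn to scale in bases after the stop codon for the protein-coding transcript with the highest TPM (for KLF4, whose coding transcripts were all at 0, the one with the lowest identifier). Grey ticks are AUUUA pentamers outside a longer match, blue diamonds UAUUUA hexamers and red circles UAUUUAU heptamers: KLF2, KLF5, KLF6, KLF7 and KLF11 have 1 heptamer each, and the 3' UTR of KLF7 is the longest at 7076 bases.

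KLF2 and KLF6 were the most abundant KLF mRNAs by counts with each bait, and together they took 69.7% of the KLF counts with wild-type ZFP36L1, 57.3% with the mutant and 59.4% with GST. The 10 mRNAs summed to 293 CPM (counts scaled to library size with TMM) with wild type, 118 CPM with the mutant and 151 CPM with GST. Without KLF2 and KLF6 the sums were 88.8, 50.4 and 61.4 CPM. Per length, KLF2 ranked highest with each bait, at 53.8 TPM for wild type, 18.2 TPM for the mutant and 17.2 TPM for GST. With the mutant 8.23 TPM of it came from KLF2-202, a transcript of 564 bases, and 9.97 TPM from KLF2-201. In that library KLF2 and KLF13 were nearly level. KLF9 was at most 0.142 TPM and KLF11 at most 0.272 TPM, so that their ratios rest on few reads. KLF3 and KLF10 lay between, at 4.58 and 6.55 TPM with wild type, 1.98 and 2.22 TPM with the mutant, and 2.77 and 5.20 TPM with GST. The TPM of KLF13, of 14.9, 18.2 and 12.5, ranked among the first 3, but rests on a transcript of 447 bases described further on. Its full-length transcript alone stood at 0.403, 0.578 and 0.702 TPM.

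**Figure D2:**
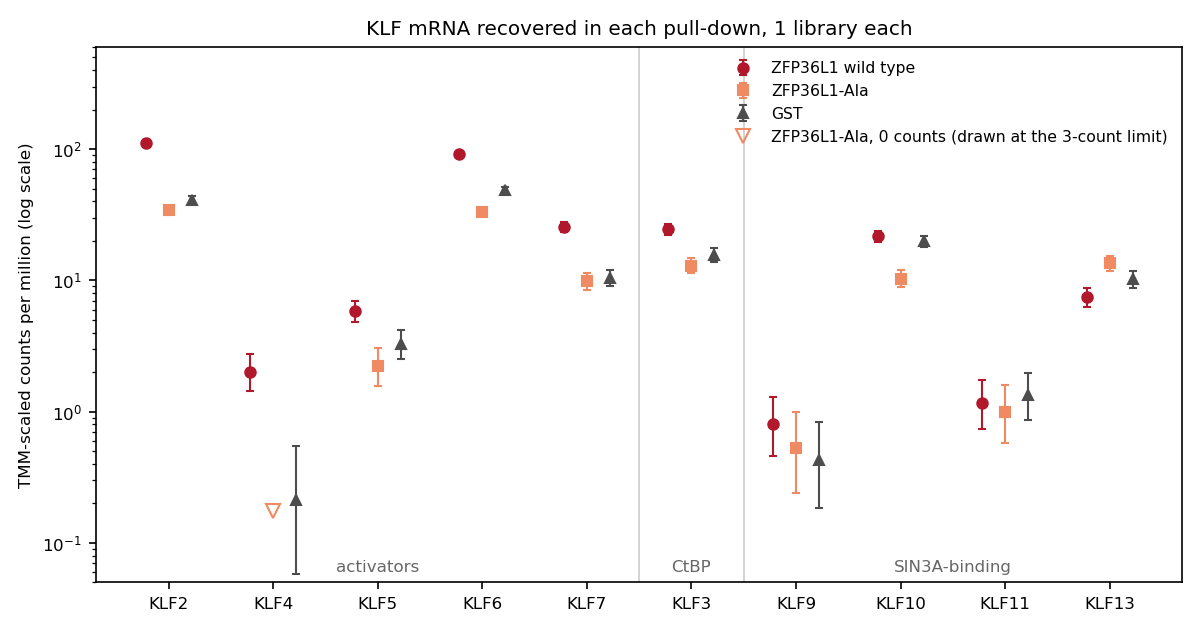
TMM-scaled CPM of the 10 KLF genes (log axis) with wild-type ZFP36L1 (red circles), ZFP36L1-Ala (orange squares) and GST (grey triangles), 1 library each, with exact Poisson 95% intervals. The 5 activators, KLF3, KLF9 and KLF10 sit higher with wild type than with either other bait, though the intervals of KLF9 and KLF10 overlap those with GST. KLF13 sits lower, and KLF4 with 0 counts for the mutant is drawn as an open triangle at the limit of 3 counts.

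Wild-type ZFP36L1 was compared with GST to see which KLF mRNAs took a larger share with the fusion protein than in the background. KLF2, KLF4 and KLF7 were higher, at 2.71-fold, 8.50-fold and 2.42-fold, and KLF6 stood at 1.90-fold. All 5 activators lay above a ratio of 1, whereas the SIN3A-binding genes lay on both sides of it. KLF4 and KLF9 passed the minimum count through the wild-type library alone, so that their ratios above 1 add no support. Genes were called higher at a ratio of 2 or more, and lower at the inverse, provided that the 95% counting interval left out 1. By this rule 3 of the 10 KLF genes were higher and 0 were lower, and of all 14082 genes 25.5% were higher and 34.2% lower. The KLF count of 3 in 10 is near that background. The median log2 ratio of the KLF genes was 0.85 against -0.04 for all genes, and 8 of the 10 lay above the median of all genes. The activators had a median of 1.28, with 3 of 5 higher, and the SIN3A-binding genes a median of -0.04, with 0 of 4 higher.

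KLF2, known for endothelial and T cell quiescence, had 2229 estimated counts with wild-type ZFP36L1 and 776 with GST. The wild-type count was the higher, with a log2 ratio of 1.44 (1.32 to 1.56). KLF4, a regulator of epithelial differentiation and a reprogramming factor, had 40 counts with wild type and 4 with GST, a log2 ratio of 3.09 (1.77 to 5.18). Its interval is wide because of the 4 counts. KLF7, best known from neuronal development, had 509 counts with wild type and 198 with GST, and a log2 ratio of 1.28 (1.04 to 1.52). The zinc finger factor KLF6, induced on injury and mutated or spliced differently in several tumours, had 1838 counts with wild type and 915 with GST. Its log2 ratio of 0.92 (0.81 to 1.04) was under 2-fold, and its call turned on the processing. It passed 2-fold, at 1.03, when the totals used for scaling left out mitochondrial and rRNA genes together with the 20 genes of highest count. It also passed with TPM, at 1.08 or 1.12 for a pseudocount of 0.5 or 0.1, and with its most abundant transcript alone, at 1.26. With the fit on GC content and length described further on removed, it stood at 0.38. KLF5, which promotes growth of epithelial cells, had 116 counts with wild type and 62 with GST (log2 0.82, 0.36 to 1.29).

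The repressor KLF3 had 488 counts with wild type and 294 with GST, a log2 ratio of 0.65 (0.44 to 0.86). Among the SIN3A-binding genes KLF9, a target of glucocorticoid and thyroid hormone, had 16 counts with wild type and 8 with GST (log2 0.87, -0.39 to 2.35), a difference that was not detectable at this depth. KLF10, first found as an early gene induced by TGF-beta, had 431 and 373 counts in the same order, and its log2 ratio of 0.13 (-0.08 to 0.33) was close to that of all genes. Its relative KLF11 had 23 counts with wild type and 25 with GST (log2 -0.20, -1.09 to 0.67). KLF13, which drives late expression of the chemokine RANTES in T cells, had 148 counts with wild type and 192 with GST, the only KLF mRNA whose interval lay below 1 (log2 -0.46, -0.78 to -0.14). With TPM in place of counts KLF13 turned to 0.25. KLF11 and KLF13 thus had the lowest ratios of the 10, of which KLF11 holds a UAUUUAU and KLF13 does not.

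**Figure D3:**
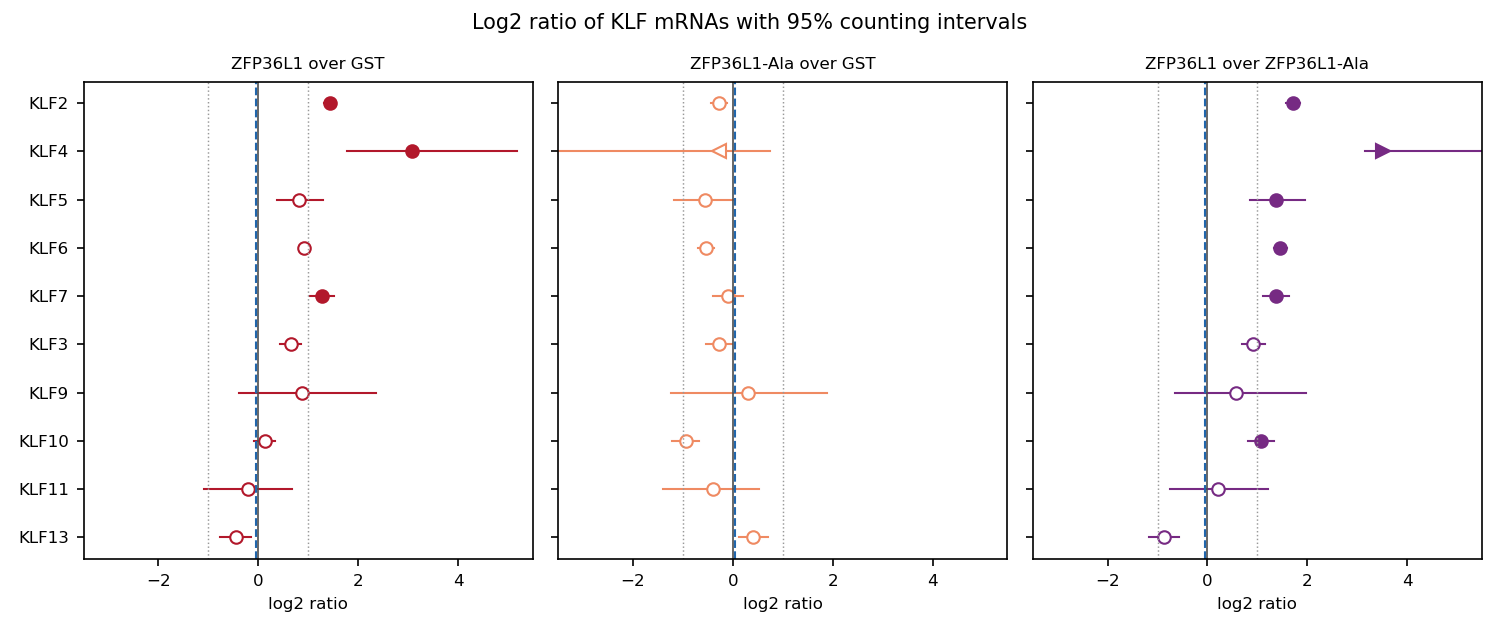
Log2 ratio of each KLF gene (points) with its 95% counting interval (lines) in the 3 comparisons; filled symbols are at least 2-fold with an interval that excludes 1, dotted lines mark 2-fold and the blue dashed line the median of all genes. Filled symbols number 3 for wild type over GST, 0 for ZFP36L1-Ala over GST and 6 for wild type over ZFP36L1-Ala; triangles for KLF4 are values with the mutant, at 0 counts, set to a floor of 3 counts.

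The median log2 ratio of the 5 KLF genes with UAUUUAU was 0.92 and that of the 5 without was 0.65, with 2 and 1 of them higher. Over all genes it was 0.94 with the site and -0.68 without, and 18.0% of the genes without the site were higher. These groups of genes were not matched for 3' UTR length or base composition, and the part of the site was not tested. Genes with exactly 1 site, as in these KLF mRNAs, had a median of 0.77, and 41.6% of them were higher. KLF2 and KLF7 lay above that value, KLF5 and KLF6 close to it and KLF11 below it. KLF4 has no UAUUUAU in the 3' UTR used here, which is that of a coding transcript with 0 counts.

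Base composition moved with the ratio over the whole series, and KLF2 stood apart from it. The transcripts of KLF2 were 65.5% GC, above 97.9% of all measured genes. The 310 genes of 65% to 70% GC had a median log2 ratio of wild type to GST of -2.91 and 2.26% of them were higher, whereas KLF2 stood at 1.44. A cubic function of GC content and length, fitted to all genes, gave -2.55 for KLF2, so that its log2 ratio lay 3.99 above the fit, at the 99.4th percentile of all genes. KLF4, at 54.6% GC, lay 4.15 above the fit, with the 40 and 4 counts given above. The 2304 genes of 50% to 55% GC had a median of -0.82. KLF7 and KLF3, at 43.8% and 42.9% GC, belong to a class of 3095 genes with a median of 0.73, and 39.5% of that class were higher. Relative to the fit KLF7 lay at 0.39, KLF6 at 0.38, KLF5 at 0.52 and KLF9 at 0.36. Below the fit lay KLF3 at -0.26, KLF10 at -0.34, KLF11 at -0.72 and KLF13, fitted at 39.2% GC, at -0.70. With the fit removed KLF2 and KLF4 alone among the 10 were at least 2-fold higher. Of all genes 21.5% were higher in that setting, so that 2 in 10 is near that background. KLF4 passed the minimum count through the wild-type library alone. The KLF median relative to all genes was 0.36 in place of 0.88. The part of base composition in the other ratios was not tested further.

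**Figure D4:**
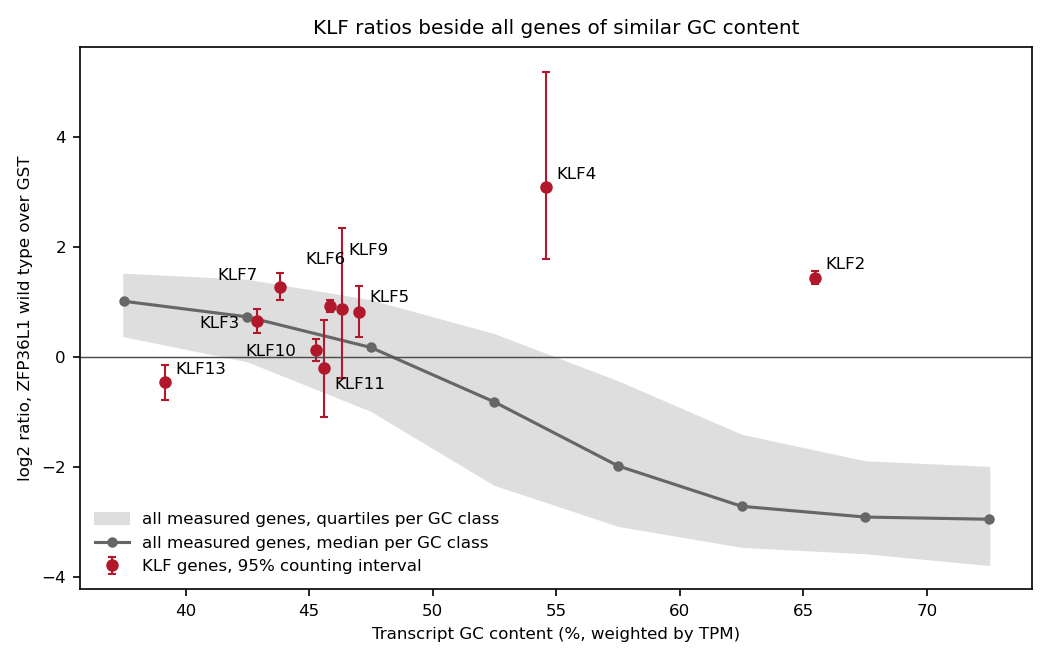
Log2 ratio, wild type over GST, against transcript GC content (percent, weighted by TPM), with KLF genes as red points with 95% counting intervals and all measured genes as the median and quartiles of classes 5 percentage points wide. KLF2 at 65.5% GC and KLF4 at 54.6% GC lie above the quartile range of their classes, while KLF7 and KLF3 lie within it.

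The comparison of ZFP36L1-Ala with GST set the KLF mRNAs held by the mutated protein against the background. None of the 10 KLF genes was counted as higher and none as lower, against 9.00% of all genes higher and 5.13% lower. The KLF median was -0.34 against 0.04 for all genes, or -0.27 with KLF4 set to a floor of 3 counts with the mutant, and 8 of the 10 ratios were below 1. KLF10 lay lowest among the genes with more than a few reads, with 176 counts for the mutant and 373 for GST. Its log2 ratio of -0.94 (-1.21 to -0.68) was just under 2-fold, and it passed 2-fold at -1.08 when scaled to total counts and at -1.15 with those reduced totals. KLF6 had 571 counts with the mutant and 915 with GST (log2 -0.54, -0.69 to -0.39). KLF5 had 38 counts with the mutant and 62 with GST (log2 -0.56, -1.19 to 0.04). For KLF5 the interval included 1, for KLF6 it did not.

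KLF2 had 583 counts with the mutant and 776 with GST, a log2 ratio of -0.27 (-0.43 to -0.12) that turned to 0.08 with TPM. The TPM of KLF2 with the mutant includes 8.23 TPM of the short KLF2-202, which stood at 0 TPM with GST. At the GC content of KLF2, genes had a median of 0.89 in this comparison and 40.3% of them were higher, and KLF2 lay 1.04 below the fit on GC content and length. KLF3 had 221 counts with the mutant and 294 with GST (log2 -0.27, -0.53 to -0.01). KLF7 had 168 and 198 (log2 -0.10, -0.40 to 0.21), KLF11 had 17 and 25 (log2 -0.40, -1.40 to 0.53) and KLF9 had 9 and 8 (log2 0.30, -1.24 to 1.89). These 3 intervals included 1. KLF13 was the KLF mRNA whose interval lay above 1, with 232 counts for the mutant and 192 for GST (log2 0.41, 0.13 to 0.70), and with its full-length transcript alone it stood close to 0 (interval -0.40 to 0.39). KLF4 had 0 counts with the mutant and 4 with GST, with a counting interval that reached up to a log2 of 0.74. A difference was not detectable at this depth.

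The direct comparison of wild type with ZFP36L1-Ala asked how KLF mRNAs differed between these baits, and its ratios use no GST counts. The GST library did enter the minimum count and the TMM factors. With 1 library per bait, an effect of the alanine substitution cannot be told apart from a difference between libraries. All 5 activators were higher with wild type, at a median log2 of 1.46, as was KLF10 of the SIN3A-binding group, and none of the 10 was lower. KLF4, with 0 counts for the mutant, passed the minimum count through the wild-type library alone, so that its call adds no support. The background in this comparison was 30.1% of all genes higher and 36.1% lower, against 6 of 10 KLF genes higher. The KLF median was 1.22 against -0.04 for all genes. The comparison shares the wild-type library with the comparison against GST, so the values of both are related through it. With the fit on GC content and length removed, 2 of the 10, KLF2 and KLF4, were higher and KLF13 was lower. Of all genes 22.6% were higher and 22.5% lower in that setting, and the KLF median was 0.27 relative to all genes. For KLF13 the fit used means weighted by TPM, 39.2% GC and 683 bases, in which a transcript of 447 bases weighs most. The coding transcript of KLF13 is 57.6% GC, so that this call depends on which transcript supplies the GC content.

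KLF2 had 2229 counts with wild type and 583 with the mutant, 3.27-fold higher (log2 1.71, 1.58 to 1.85). KLF6 had 1838 counts with wild type and 571 with the mutant, 2.76-fold higher (log2 1.46, 1.33 to 1.60). KLF7, with 509 counts for wild type and 168 for the mutant, and KLF5, with 116 and 38, were each 2.59-fold higher. The intervals of log2 were 1.12 to 1.64 for KLF7 and 0.85 to 1.96 for KLF5, and both overlap that of KLF6. KLF4 had 40 counts with wild type and 0 with the mutant, at least 11.4-fold higher against a floor of 3 counts. The 95% counting interval reaches lower than that floor gives, starting at a log2 of 3.15. KLF10 had 431 counts with wild type and 176 with the mutant, 2.10-fold higher (log2 1.07, 0.81 to 1.33). For KLF10 the mutant lay below GST while wild type lay close to it, whereas for KLF2 and KLF7 wild type lay more than 2-fold above GST.

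KLF3 had 488 counts with wild type and 221 with the mutant, a log2 ratio of 0.92 (0.69 to 1.16) under 2-fold. It passed at 1.09 when scaled to total counts, and turned to -0.35 with the fit on GC content and length removed. KLF9, with 16 counts for wild type and 9 for the mutant (log2 0.57, -0.66 to 1.97), and KLF11, with 23 and 17 (log2 0.20, -0.75 to 1.21), had intervals that included 1. KLF13 had 148 counts with wild type and 232 with the mutant (log2 -0.87, -1.18 to -0.57). It was the KLF mRNA that took its smallest share with wild type.

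The gene values rest on few transcripts. Of 48 annotated KLF transcripts 15 had any count. For KLF2 the transcript of 2018 bases, KLF2-201, held all counts with wild type and GST, and with the mutant 497 of 583, the rest going to KLF2-202 of 564 bases. KLF2-201 alone had a log2 ratio of wild type to mutant of 1.94 (1.80 to 2.09). For KLF6 the transcript KLF6-207, which lacks an exon of KLF6-206, held 1838 counts with wild type, 345 with the mutant and 727 with GST. KLF6-206 held 0, 226 and 187. These transcripts share 99.3% of their 31-mers with other KLF6 transcripts, so that the split between them is an estimate from few reads. KLF6-207 alone was above 2-fold over GST, at log2 1.26 (1.13 to 1.38).

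All KLF4 counts were assigned to KLF4-205, annotated as a retained intron, and the protein-coding KLF4-201 had none. KLF4-205 shares 92.4% of its 31-mers with other KLF4 transcripts and contains the last exon of KLF4-201 with its 3' UTR. For KLF13 the split was between the protein-coding KLF13-201 of 6825 bases and KLF13-204 of 447 bases, a processed transcript whose exons lie within the last exon of KLF13-201. KLF13-204 took 59.2% of the KLF13 counts with wild type, 55.1% with the mutant and 40.3% with GST. KLF13-201 alone, at 57.6% GC, had 60.4 counts with wild type, 104 with the mutant and 115 with GST. It was at least 2-fold lower with wild type than with GST (log2 -1.02, -1.50 to -0.56) and than with the mutant (log2 -1.01, -1.50 to -0.54). The 2081 genes of 55% to 60% GC had lower medians, -1.98 over GST and -2.44 over the mutant. Of these genes 65.1% were lower than with GST and 70.5% than with the mutant. KLF13-204, at 38.5% GC, stood at log2 0.11 (-0.35 to 0.57) over GST. For KLF3 the transcript KLF3-201 held between 89.4% and 97.6% of the counts.

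**Figure D5:**
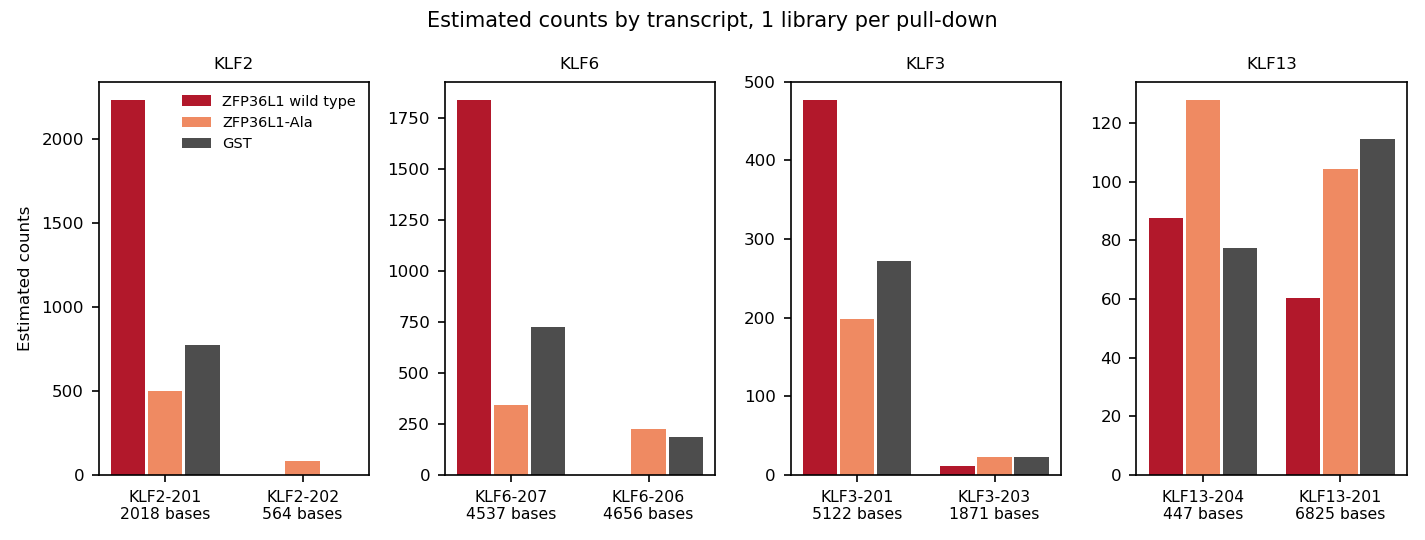
Estimated counts per transcript of KLF2, KLF6, KLF3 and KLF13 with wild-type ZFP36L1 (red), ZFP36L1-Ala (orange) and GST (grey), 1 library per bait, for transcripts with at least 10 counts in a library. KLF6-206 has 0 counts with wild type, KLF2-202 has counts with the mutant only, and KLF13 is split between transcripts of 447 and 6825 bases.

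Sequence shared with other genes was small for most members: 0 of the 31-mers of KLF4, KLF5, KLF6 and KLF10 occur in transcripts of another gene, and at most 0.92% of those of KLF2, KLF7, KLF9 and KLF13. For KLF11 the share was 8.47% and for KLF3 6.70%. These are the members that overlap an antisense gene in exons, and whether the libraries keep strand is not given in the sources used here. Antisense to KLF11, AC104794.4 had 72 counts with wild type, 34 with the mutant and 21 with GST, more than KLF11 with wild type, and a log2 ratio to GST of 1.67 (0.98 to 2.47). The ratios of KLF11 are therefore uncertain. KLF3-AS1 had 4, 12 and 6 counts, few beside those of KLF3.

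Of 17 other genes of the KLF and SP family, 15 were in the tables and 9 were measured. With wild type over GST 2 were higher and 0 lower, at a median log2 of 0.37, and with wild type over the mutant 4 were higher and 0 lower, at 0.93. Over all genes 25.5% were higher and 34.2% lower than with GST, and 30.1% and 36.1% than with the mutant. Relative to all genes the median of these 9 was 0.41 over GST and 0.97 over the mutant, and it turned to -0.26 over GST and moved to 0.27 over the mutant with the fit on GC content and length removed. SP2 had 1025 counts with wild type and 471 with GST (log2 1.04, 0.88 to 1.20), and SP4 had 275 and 128 (log2 1.02, 0.71 to 1.34). SP4 had 52 counts with the mutant and was 4.50-fold higher with wild type. KLF16, also SIN3A-binding, had 2172 counts with wild type and 3100 with the mutant (log2 -0.74, -0.82 to -0.66), below 1 like KLF13. KLF9, KLF10 and KLF11 of that group lay above 1, with intervals for KLF9 and KLF11 that included 1. KLF8 had 20 counts with wild type and 35 with GST (log2 -0.87, -1.76 to -0.06), under 2-fold and thus not called lower. Its 3' UTR holds 3 UAUUUAU.

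Genes that work with KLF proteins held members on both sides of the ratio to GST, beside shares of 25.5% higher and 34.2% lower over all genes. Of 12 cofactors 5 were higher with wild type than with GST and 2 were lower, at a median log2 of 0.29. The histone deacetylase HDAC1 was 3.24-fold higher and the acetyltransferase EP300 3.05-fold, whereas CTBP1 (log2 -1.71) and HDAC3 (log2 -1.63) were lower. Of 10 ubiquitin ligases and deubiquitinases that act on KLF proteins 5 were higher and 2 lower, with ITCH, a ligase of KLF10, at log2 1.63 and the deubiquitinase BAP1 at log2 -2.64. WWP1, a ligase of KLF2 and KLF5, had 1801 counts with wild type and 319 with the mutant, 4.83-fold higher. In the ERK5 and MEF2 pathway, which induces KLF2 and KLF4, 4 of 8 genes were higher and 2 lower than with GST. The transcription factors MEF2A (log2 2.16) and MEF2C (log2 2.20) were higher, and the kinase MAP2K5 (log2 -2.09) and MEF2B (log2 -2.70) were lower. Of 6 TGF-beta receptors and SMAD proteins 3 were higher than with GST and 0 lower, SMAD2 at log2 1.61 and TGFBR2 at log2 1.37. SMAD7, an inhibitor whose gene KLF10 represses, had 32 counts with wild type and 40 with GST (log2 -0.40, -1.12 to 0.30).

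Of 15 genes known to be regulated by KLF proteins 11 were measured, 4 of them higher with wild type than with GST and 4 lower, beside 25.5% and 34.2% of all genes. Thrombomodulin, THBD, which KLF2 induces in endothelium, had 1130 counts with wild type, 200 with the mutant and 246 with GST, and its 3' UTR holds 5 UAUUUAU. The cell cycle inhibitor CDKN1C was also higher over GST (log2 2.10, 1.15 to 3.30), and TAGLN (log2 -3.24) and ENG (log2 -3.12) were lower. With the mutant over GST, the genes of these 6 lists called lower were SP4 (1 of 9 measured), NCOR1 and HDAC2 (2 of 12) and WWP1 (1 of 10). S1PR1 (1 of 11), with 14 counts for the mutant and 4 for GST, was called higher. None was called among the 8 ERK5 and MEF2 pathway genes or the 6 TGF-beta receptors and SMAD proteins. Over all genes 5.13% were lower and 9.00% higher in this comparison.

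Among 9138 protein-coding genes with a mean of at least 100 counts and outside the family, SYT15, HP1BP3, DERL2, GNPNAT1 and ARFGEF1 had the pairs of log2 ratios to GST (wild type and mutant) nearest to the KLF medians of 0.85 and -0.34. Their Euclidean distances were at most 0.03 on the log2 scale over the 3 libraries. The median of -0.34 includes KLF4 at 0 counts with the mutant and becomes -0.27 with KLF4 at a floor of 3 counts. That shift exceeds these distances, so which genes lie nearest may depend on it.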

How the data were processed

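The deposited tables hold kallisto's estimated counts for 196354 transcripts in each library, and TPM values that the authors' pipeline scaled by effective length, per the file headers. The length columns served only to describe transcripts. The submitters' processing notes name kallisto, DESeq2 and the hg19 build, without versions; what DESeq2 was used for, and the transcript annotation, is not stated there. Identifiers were joined to GENCODE 29 (GRCh38): 92.6% matched, and 93.2% of the matches had equal length. KLF5-201 and KLF9-201 differ slightly in length. Unmatched rows held 3.79% of counts for wild type, 4.20% for the mutant and 3.92% for GST.

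Estimated counts were summed per gene and rounded, and genes needed a mean of at least 10. TMM factors from edgeR 4.0.16 over 14082 genes were 1.05, 0.933 and 1.03 for wild type, mutant and GST. Log2 ratios used a prior count of 0.5, with exact Clopper-Pearson 95% intervals on the split of both counts. Depth was 19137867 to 19845386 estimated counts per library, and 3 counts correspond to 0.150 to 0.176 CPM. The 3' UTR was taken from the coding transcript of highest mean TPM. For KLF4, whose coding transcripts were all at 0, the tie went to the lowest transcript identifier, KLF4-201. The rule for calls was tested on simulated Poisson counts without variation between libraries, so that test does not cover differences between single libraries. Members, gene lists and the naming rule were chosen with earlier results of these data known. Named were all 10 members, genes from the 2 highest and 2 lowest of each other list per comparison, genes overlapping a member, and the 5 nearest genes by ratio. Alternatives were other scalings (DESeq2 1.42.0 size factors, total counts, reduced totals), TPM, other minimum and prior counts, coding genes, single transcripts, thinning, and removal of a cubic fit on GC content and length. With 1 library per bait no test across libraries was made.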

Additional observations from a re-analysis of the deposited data

How the results depend on the processing

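No KLF gene called higher changed sign under the alternatives run. Over all of them, 269 ratios of single KLF genes stayed within the counting interval of the reported ratio and 52 left it. KLF2 was higher than with GST, and than with the mutant, under all 12 alternatives. KLF4 was higher in the 8 that kept it, but these all rest on the same 40, 0 and 4 counts (wild type, mutant and GST). It passed the minimum count through the wild-type library alone, so this agreement adds no support. KLF7 over GST, and KLF5, KLF6, KLF7 and KLF10 over the mutant, were no longer at least 2-fold higher once the fit on GC content and length was removed. With that fit removed the KLF median relative to all genes was 0.36 for wild type over GST (0.88 as reported). It was 0.27 for wild type over the mutant (1.26 as reported). Over the mutant 2 KLF genes were higher and 1 (KLF13) lower, against 22.6% and 22.5% of all genes. In the mutant over GST 1 KLF gene (KLF2) was lower, against 4.25% of all genes. The fit took KLF13 at its weighted 39.2% GC, whereas the coding KLF13-201 is 57.6% GC. Using the most abundant protein-coding transcript only, 1 gene (KLF13) was lower with wild type than with GST and 1 than with the mutant, against 36.5% and 37.6% of all genes. Of the genes not called, those whose sign turned for wild type over GST were KLF13 (0.25 with TPM), KLF3 (-0.26 with the fit removed) and KLF10 (-0.34 with the fit removed). For wild type over the mutant they were KLF3 (-0.35), KLF9 (-0.18) and KLF11 (-0.54), each with the fit removed. The cause of these changes was not tested. KLF10 was the 1 gene lower in the mutant than in GST with total counts, with totals without mitochondrial, ribosomal RNA and the 20 most abundant genes, with TPM at a pseudocount of 0.5 or 0.1, and with no minimum count. Totals without the most abundant genes moved the median of all genes by 0.11 for wild type over GST, by -0.21 for the mutant over GST and by 0.32 for wild type over the mutant. A minimum of 100 counts or of 1 TPM left out KLF4, KLF5, KLF9 and KLF11, and the most abundant protein-coding transcript alone left out KLF4. No paired analysis was possible because there is 1 library per bait. KLF4, KLF9 and KLF11 are limited by depth.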
